A study of Mus musculus with 14 samples.

Results

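Of the 21905 genes with a symbol in the deposited table, 9 chosen by name encode RNA helicases of the mouse testis other than MVH, the DEAD-box protein encoded by Ddx4. They are Ddx25, D1Pas1, Ddx5, Ddx17, Ddx20, Ddx21, Ddx46, Dhx9 and Dhx36, and all 9 were found by symbol. The values come from a purification of the chromatoid body, an RNA and protein granule beside the nucleus of round spermatids, from C57BL/6 mice at least 6 weeks old. Per the labels' protocols, cells of dissociated tubules were fixed with formaldehyde and sonicated (lysate), then spun into a supernatant and pellet1, and pellet1 was sonicated again and filtered to give pellet2. RNA was also taken from immunoprecipitates with an MVH antibody (MVH IP, 3 libraries pooled in the deposited values), which the protocol places after pellet2 and the sample types place after lysate. Sorted round spermatids (2 libraries, of which 1 was made from RNA above 500 bp, pooled in the deposited values) and round spermatids labelled hetMIWI (1 library) complete the groups used, out of 14 libraries in 9 groups. The hetMIWI label is not explained further in the labels, and the labels give no drug or other treatment of the mice. The control IgG and ACR immunoprecipitates were not analysed here, so MVH IP values stand without a control precipitate.

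RNA helicases of the DEAD and DEAH families use ATP to unwind short RNA duplexes and to remodel RNA and protein complexes, and most act at a particular step of transcription, splicing, export, translation or decay. Round spermatids store many mRNAs for later translation, and several helicases take part in that handling. What was measured here is the RNA of each helicase gene, as FPKM, which scales fragments to transcript length and library size, and not the protein. Within a table, each condition has a single deposited value per gene, with no replicate spread and unknown depth, so differences are given as sizes without an error. Lysate and MVH IP have values both in the joint table of 5 conditions and in separately scaled tables described further on. In these bulk preparations, fewer cells of a type and less RNA per cell cannot be told apart.

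All 9 genes were matched to a coding transcript of GENCODE M21 (GRCm38). The bases shown are those around motif II, the ATP-binding element that gives the families their names, because they show how the members divide before any level is compared. The 12 bases of the 4 motif codons are in capitals, and Ddx4 and Ddx3x (the X-linked gene from which D1Pas1 derives) are added for comparison.
Ddx25: tttgtcctgGATGAAGCAGATgtgatgatt
D1Pas1: ttggtgttaGATGAAGCAGATcgaatgttg
Ddx20: tttattcttGATGAAGCAGATaagctttta
Ddx46: gttgttttaGATGAAGCAGACagaatgttt
Ddx5: cttgtccttGATGAAGCTGATaggatgctt
Ddx4: ttagttttgGATGAAGCTGATcgaatgttg
Ddx17: cttgtgttgGATGAGGCTGACcggatgctt
Ddx3x: ctggtgttaGATGAAGCTGACcggatgtta
Ddx21: gttgtcctgGATGAAGTCGACcagatgttg
Dhx9: gttattgtgGATGAAATTCATgaaagagat
Dhx36: attgtacttGATGAAATTCATgaaaggaat

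The capitals encode DEAD in Ddx25, D1Pas1, Ddx20, Ddx46, Ddx5, Ddx17, Ddx4 and Ddx3x, DEVD in Ddx21, and DEIH in Dhx9 and Dhx36. Ddx25, D1Pas1 and Ddx20 use the same 12 bases, as do Dhx9 and Dhx36, while the close relatives Ddx5 and Ddx17 write the motif with different codons. D1Pas1, a retrogene, has a single exon, while the motif lies in exon 11 of 17 in Ddx3x. D1Pas1 and Ddx3x were identical at 87.4% of 1977 aligned coding bases, Ddx5 and Ddx17 at 72.2% of 1804, and Ddx21 and its neighbour Ddx50 at 73.3% of 2133. No window of 50 bases was shared exactly between the transcripts of D1Pas1 and Ddx3x, of Ddx5 and Ddx17, or of Ddx21 and Ddx50. The sources used here do not say how the authors' counting treated reads that match more than 1 copy.

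In the authors' table (mm9), Ddx25 lies at chr9:35349433-35366055, D1Pas1 at chr1:188791295-188794506, Ddx20 at chr3:105481380-105490489 and Dhx36 at chr3:62272564-62310910. Ddx5 is listed at chr11:106641670-106649808, an interval it shares with the microRNA gene Mir3064, and Ddx17 at chr15:79346838-79377171, an interval it shares with Kdelr3. Kdelr3 was at 0 to 2.09 FPKM in the 5 conditions and Mir3064 at 2605 to 6866 FPKM. The sources used here do not say whether strand entered the counting, so reads of overlapping genes could not be separated.

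The 9 helicases spanned more than a 10-fold range in lysate. Ddx5, a coregulator and processing factor, was highest at 221 FPKM, above 97.1% of the 12803 genes at 1 FPKM or more. Ddx25 followed at 174 FPKM, Ddx17 at 155, Ddx20 at 150, D1Pas1 at 123, Ddx46 at 46.5, Dhx9 at 42.6, Dhx36 at 19.0 and Ddx21 at 9.39 FPKM. In MVH IP the order was Ddx20, Ddx5, D1Pas1, Dhx9, Ddx17, Dhx36, Ddx25, Ddx46 and Ddx21. Ddx20 thus ranked 4 of 9 in lysate and 1 of 9 in both pellets and in MVH IP, and Ddx25 went from rank 2 to rank 7. Without replicates, no spread is available to say which neighbours in these orders differ.

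**Figure D1:**
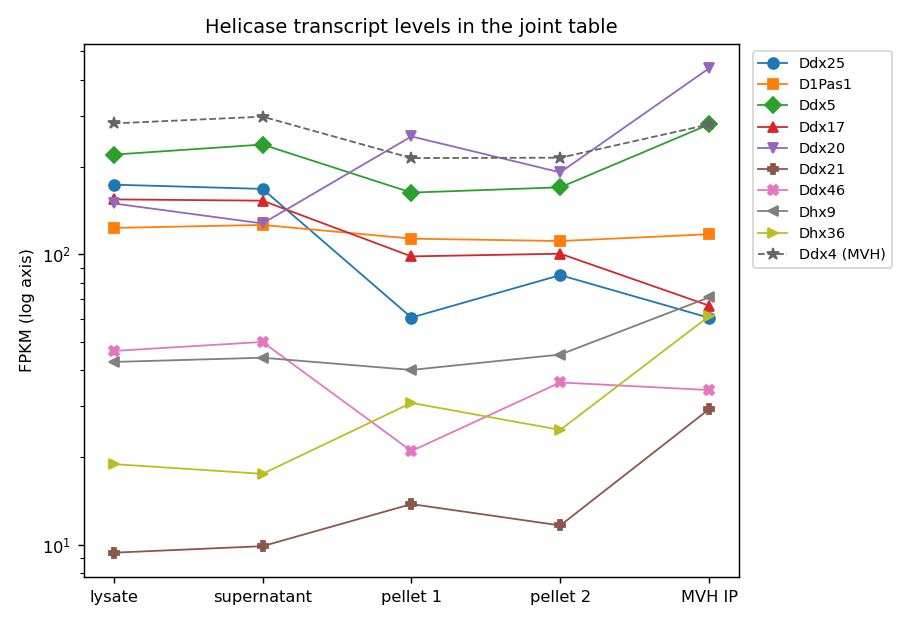
FPKM on a log axis (vertical) of the 9 helicases and of Ddx4 in the 5 conditions of the joint table (horizontal), 1 deposited value per point, with lines only to guide the eye. Ddx20 climbs from 150 FPKM in lysate to 438 in MVH IP while Ddx25 goes from 174 to 60.5, and D1Pas1 stays between 111 and 126.

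Ddx25 encodes GRTH, a gonadotropin-regulated helicase of the germ line and Leydig cells that is needed to complete spermiogenesis. It was listed at 174 FPKM in lysate, 168 in the supernatant, 60.6 in pellet1, 84.8 in pellet2 and 60.5 in the MVH IP. Lysate and supernatant were high, and all pelleted and precipitated material was low. Its log2 ratio to lysate, taken on FPKM + 1 here and throughout, was -1.50 in pellet1, -1.03 in pellet2 and -1.51 in the MVH IP. In the authors' deposited table the corresponding Cuffdiff p-values were 0.00511, 0.0459 and 0.0196, and none passed their threshold after adjustment (q-value 0.118, 0.354 and 0.240). MVH IP and pellet1 held nearly the same value, while pellet2 lay 1.39-fold above pellet1.

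D1Pas1 encodes PL10, the testis-expressed autosomal copy of the translation helicase DDX3X. Its levels were 123 FPKM in lysate, 126 in the supernatant, 113 in pellet1, 111 in pellet2 and 117 in the MVH IP. The highest FPKM was 1.14 times the lowest, the narrowest range of the 9. Relative to the median log2 ratio of all genes, D1Pas1 was at -0.99 in MVH IP against lysate, above 20.8% of genes. Against supernatant it was at -1.04 relative to that comparison's median. Over lysate, supernatant, pellet1, pellet2 and MVH IP, Ddx3x was listed at 5.72, 5.61, 5.05, 3.77 and 11.4 FPKM. The Y-linked copy Ddx3y was at 1.79 to 2.57 FPKM. On this length-scaled measure D1Pas1 was 21.6 times Ddx3x in lysate and 10.3 times in MVH IP. In the separately scaled MVH IP table described further on, which lists Ddx3x at 55.3 FPKM, the ratio was 1.66.

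Ddx5 and Ddx17 encode close relatives that associate with the Drosha Microprocessor and act in splicing and transcription. Ddx5 was at 221 FPKM in lysate, 239 in the supernatant, 163 in pellet1, 170 in pellet2 and 280 in the MVH IP. Ddx17 was at 155, 153, 98.4, 101 and 66.6 FPKM in the same order. Both were below lysate in the pellets, and the genes parted in MVH IP, where Ddx5 had its highest value and Ddx17 its lowest. Ddx5 over Ddx17 was between 1.43 and 1.69 in lysate, supernatant and both pellets and 4.21 in MVH IP. In the separately scaled tables described further on, it was 1.77 in lysate and 10.9 in hetMIWI round spermatids, so a wide ratio was not particular to MVH IP. Ddx17 had a log2 ratio of -1.20 to lysate and -1.19 to supernatant in MVH IP. These were the only 2 of the 90 tests of these genes in the authors' deposited table that passed, with q-values of 0.00433 and 0.00366, and 20 of the 90 had an unadjusted p-value under 0.05. There, of 10430 tested genes, 0.115% were called lower and 7.05% higher in MVH IP against lysate, and 0.117% lower and 9.16% higher of 11096 against supernatant.

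Ddx20 encodes Gemin3, the helicase of the SMN complex, which loads Sm proteins onto spliceosomal small nuclear RNAs. Its levels were 150 FPKM in lysate, 128 in the supernatant, 255 in pellet1, 192 in pellet2 and 438 in the MVH IP. Supernatant was lowest, both pellets were above lysate, and MVH IP was highest. MVH IP was 2.91-fold above lysate (log2 ratio 1.54), a value above that of 70.7% of all genes. The authors' deposited table gave a p-value of 0.00859 and a q-value of 0.157 for it.

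Ddx21 encodes a nucleolar helicase of ribosomal RNA transcription and processing, and was the lowest of the 9 in every condition. It was listed at 9.39 FPKM in lysate, 9.89 in the supernatant, 13.8 in pellet1, 11.7 in pellet2 and 29.3 in the MVH IP. MVH IP was 2.92-fold above lysate (log2 ratio 1.54), with a q-value of 0.233 in the authors' deposited table. Ddx50, its paralog 13724 bases away on chromosome 10, was at 24.4 FPKM in lysate and 81.4 in MVH IP.

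Ddx46 encodes the relative of yeast Prp5 that helps the U2 small nuclear ribonucleoprotein engage the branch site. It was at 46.5 FPKM in lysate, 49.9 in the supernatant, 21.0 in pellet1, 36.2 in pellet2 and 34.1 in the MVH IP. Pellet1 stood lowest, at a log2 ratio of -1.11 to lysate, and pellet2 was 1.69-fold above pellet1.

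The DEAH members Dhx9, a helicase of double-stranded RNA and of RNA and DNA hybrids, and Dhx36, which resolves G-quadruplexes, share the motif codons shown above. Dhx9 was listed at 42.6 FPKM in lysate, 44.1 in the supernatant, 40.0 in pellet1, 45.2 in pellet2 and 71.1 in the MVH IP. Dhx36 was at 19.0, 17.6, 30.8, 24.9 and 61.3 FPKM in the same order. Both were highest in MVH IP, 1.65-fold above lysate for Dhx9 and 3.12-fold for Dhx36 (log2 ratio 1.64). Dhx36 was also above lysate in both pellets, which Dhx9 was only in pellet2 and by 1.06-fold.

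A gene was called at 2-fold or more, and the comparisons with lysate share its single value. In supernatant 0 of the 9 helicases were called, beside 0.751% of 12777 genes higher and 1.46% lower, and all 9 lay within 1.17-fold of lysate. In pellet1, Ddx25 and Ddx46 were called lower and 0 higher, beside 16.8% of 12904 genes higher and 9.41% lower. In pellet2, Ddx25 alone of the 9 was called lower and 0 higher, beside 12.5% of 12941 genes higher and 7.21% lower. The Ddx25 call in pellet2 was at the threshold, with a 2.04-fold difference.

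In MVH IP against lysate, Ddx20, Ddx21 and Dhx36 were called higher and Ddx25 and Ddx17 lower. Of 13855 genes, 47.3% were called higher and 7.53% lower, so 3 of 9 higher is a smaller share than the background and 2 of 9 lower a larger one. The median log2 ratio was 0.34 over the 9 helicases and 0.92 over all genes. Relative to that median of all genes, 0 of the 9 were called higher and Ddx25, Ddx17 and Ddx46 were called lower, at -2.43, -2.12 and -1.35, beside 18.7% of all genes higher and 20.6% lower on that scale. Dhx36, Ddx21 and Ddx20 were then at 0.72, 0.63 and 0.62. Ddx4, whose protein was the target of the antibody, was at 282 FPKM in lysate and 280 in MVH IP. Relative to the median of all genes this was -0.93. In the separately scaled tables described further on, Ddx4 went from 121 to 250 FPKM (log2 ratio 1.04), or -0.99 relative to the median there.

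Against pellet2, MVH IP was called higher for Ddx20, Ddx21 and Dhx36, by 2.28-fold, 2.40-fold and 2.41-fold, and lower for 0 of the 9. Of 13808 genes, 39.9% were called higher and 5.78% lower, around a median log2 ratio of 0.79. Relative to that median, 0 of the 9 were called higher, and Ddx25 (-1.27) and Ddx17 (-1.38) were called lower, beside 14.2% of all genes higher and 13.7% lower. The 3 helicases highest against lysate were thus also the 3 highest against pellet2, with the same MVH IP values entering both comparisons.

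**Figure D2:**
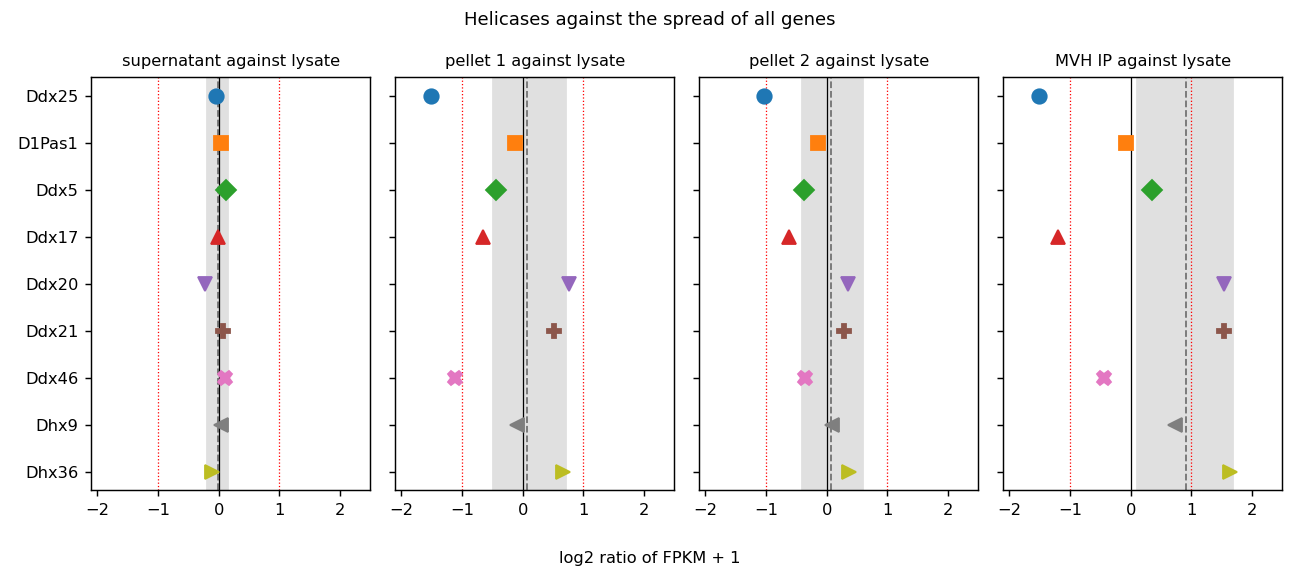
Log2 ratio of FPKM + 1 to lysate (horizontal) for each helicase (vertical) in the supernatant, pellet1, pellet2 and MVH IP panels, with the dashed line at the median of all genes, the grey band from their lower to upper quartile, and red dotted lines at 2-fold. In the MVH IP panel the median of all genes is at 0.92, with Ddx20, Ddx21 and Dhx36 to its right and Ddx25 and Ddx17 far to its left.

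Marker sums of testis cell types did not all move the same way from lysate to MVH IP. Over 9 of 10 listed Sertoli markers the summed level was 61.9 FPKM in lysate, 65.1 in the supernatant, 22.9 in pellet1, 28.8 in pellet2 and 289 in the MVH IP, with Amh and Fshr at 0 in MVH IP. The 8 spermatogonial markers summed to 18.5 FPKM in lysate and 75.4 in MVH IP, with Gfra1 and Nanos3 at 0 there. The 6 Leydig markers, none at 0, summed to 284 FPKM in lysate, 252 in the supernatant, 134 in pellet1, 162 in pellet2 and 213 in the MVH IP. Also with none at 0, the 10 round spermatid markers summed to 43491 FPKM in lysate and 36934 in MVH IP. From lysate to MVH IP, 9 listed spermatocyte markers summed to 578 and 606 FPKM, 5 macrophage markers to 15.7 and 26.1 (Cd68 at 0 in MVH IP) and 4 endothelial markers to 4.90 and 13.1 (Pecam1 at 0 there). The part of these levels in the helicase values was not tested.

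Ratios between helicases within a condition do not depend on a factor common to all its genes, but they can differ between tables. In MVH IP, Dhx36 over Dhx9 was 0.862 in the joint table and 1.32 in the separate table described further on. Ddx20 over Ddx25 was 7.24 and 7.35 there. In the joint table, Ddx20 over Ddx25 was 0.861 in lysate, 0.760 in the supernatant, 4.20 in pellet1, 2.26 in pellet2 and 7.24 in the MVH IP. Ddx25 exceeded Ddx20 in lysate and supernatant, and Ddx20 exceeded Ddx25 in the other 3 conditions. Ddx25 over D1Pas1, the testis-enriched members, was 1.41, 1.33, 0.535, 0.763 and 0.516 in the same order. Dhx36 over Ddx46 was 0.408 in lysate and 0.351 in supernatant, against 1.47 in pellet1, 0.686 in pellet2 and 1.80 in the MVH IP. Relative to Ddx4, Ddx20 went from 0.530 in lysate to 1.56 in MVH IP and Ddx25 from 0.615 to 0.216.

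**Figure D3:**
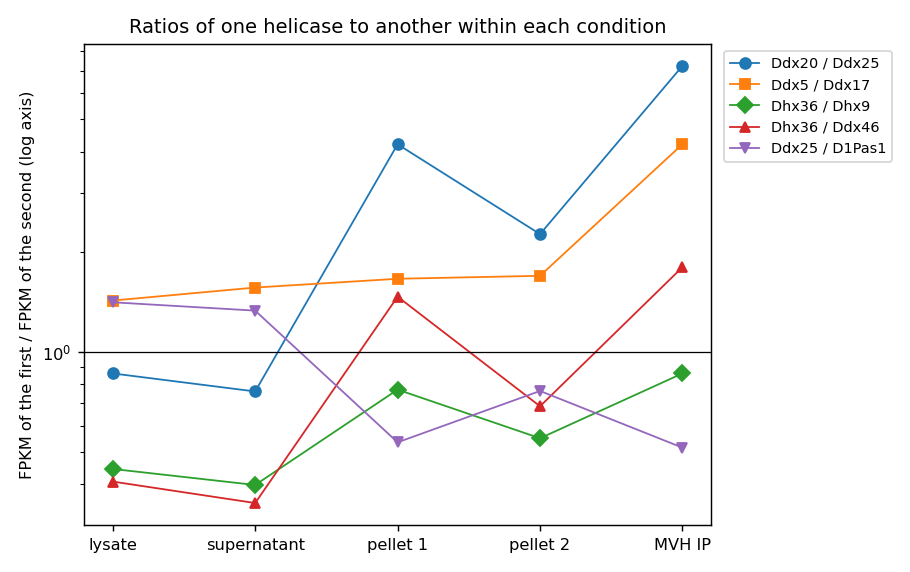
FPKM of a first helicase divided by that of a second in the same condition (vertical, log axis) over the 5 conditions of the joint table (horizontal), for 5 pairs of genes, with the line at 1 marking equal levels. Ddx20 over Ddx25 crosses that line between supernatant (0.760) and pellet1 (4.20), and Ddx5 over Ddx17 leaves its range only in MVH IP (4.21).

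Profiles over the 5 conditions, as centred log2 values, were compared by Euclidean distance across 8917 genes with a mean of 5 FPKM or more. Among the 9, Ddx20 and Dhx36 were nearest to each other (0.170), followed by Ddx21 and Dhx36 (0.260), and Ddx25 and Ddx20 were farthest apart (2.81). A gene's distance to its nearest neighbour had a median of 0.0933. The genes most like Ddx25 were Srpk1 (0.122), Adam3 (0.125) and Tram1 (0.140), and those most like D1Pas1 were Son (0.0362), Dzip3 (0.108) and Pde8a (0.111). Dhx36 was most like Fam183b (0.0400), Adam25 (0.0640) and 0610030E20Rik (0.0782), and Ddx20 was most like Cse1l (0.0712), Pyroxd1 (0.0862) and Slco6b1 (0.0875). For Ddx5 these were Katnal1 (0.0470), Cstf1 (0.0700) and Gtf3c1 (0.0901), and for Ddx17 they were 4930412O13Rik (0.105), Cog5 (0.113) and Raver1 (0.116). Ddx21 was most like 1500031L02Rik (0.0967), 1700094C09Rik (0.119) and Aagab (0.120), Ddx46 was most like Ccnk (0.0977), Drap1 (0.108) and Acat2 (0.120), and Dhx9 was most like Luc7l3 (0.0819), Usp7 (0.0834) and Kif20b (0.0882). These distances are descriptions over 5 single values.

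Separate gene tables for lysate, round spermatids, hetMIWI round spermatids and MVH IP list genes from 5 FPKM upward and were scaled apart, so folds between them carry that scaling. The round spermatid table listed 10 of 10 round spermatid markers, 6 of 10 spermatocyte markers and 0 Sertoli, Leydig or spermatogonial markers. The separate lysate table, with the same floor, listed 2 Sertoli, 4 Leydig and 0 spermatogonial markers. The 10 round spermatid markers summed to 8082 FPKM in the round spermatid table and 18696 in that lysate table. The hetMIWI table is short, with 3187 genes, and lists neither Ddx4 nor the flagellar gene Odf1, which was at 532 FPKM in round spermatids, so a gene missing there is not shown to be low. In lysate the 8 listed helicases were at 0.365 to 0.471 times their joint values, around a median of 0.409 over all genes. In MVH IP they were at 0.717 to 3.20 times, with Ddx5 highest, around a median of 1.15. The quartiles over all genes in MVH IP were 0.842 and 2.25, so the tables differ by gene there. The sources used here do not say whether both MVH IP values rest on the same libraries.

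Ddx5 was at 104 FPKM in lysate, 668 in round spermatids, 357 in hetMIWI round spermatids and 896 in MVH IP, the highest of the 9 in each of these tables. Ddx25 was at 71.7, 82.2, 152 and 54.9 FPKM in the same order, lowest in MVH IP here too. D1Pas1 was at 45.0, 29.4, 53.4 and 91.6 FPKM. Sorted round spermatids thus held Ddx25 at 2.79 times D1Pas1, hetMIWI round spermatids at 2.85 times, and MVH IP at 0.599 times.

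Ddx20 was at 60.7 FPKM in lysate, 103 in round spermatids, 195 in hetMIWI round spermatids and 403 in MVH IP. Ddx20 over Ddx25 was 1.25 in round spermatids and 1.28 in hetMIWI round spermatids, between 0.847 in lysate and 7.35 in MVH IP. Dhx36 was at 7.51, 6.33, 7.31 and 67.4 FPKM, near the floor in all but MVH IP. Ddx46 was at 20.1, 31.6, 39.9 and 44.5 FPKM.

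Dhx9 was listed at 18.1 FPKM in lysate, 5.23 in hetMIWI round spermatids and 51.0 in MVH IP, and was not in the round spermatid table. Ddx21 was listed in MVH IP alone, at 23.0 FPKM. Ddx17 was at 58.7 FPKM in lysate and 32.6 in hetMIWI round spermatids. Its 8.64 FPKM in round spermatids belongs to a narrower interval of 5222 bases, against 30334 elsewhere, so the value is not comparable. The separate MVH IP table had no entry for Ddx17. It also lacked Eif4a2 and Npm1, at 139 and 113 FPKM in MVH IP of the joint table, so a gene missing there is not shown to be low.

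In MVH IP against lysate, the separate tables listed 7 helicases in both, with 6 called higher (all but Ddx25) and 0 lower, beside 78.9% of 3806 genes higher and 0.473% lower. Relative to the median of 2.03, Ddx5 was higher (1.07) and Ddx25 (-2.41) and D1Pas1 (-1.02) were lower, beside 23.4% of genes higher and 21.8% lower. In the joint table Ddx5 was at -0.57 relative to the median of all genes, so its direction depends on the table. The log2 ratio of Ddx46 went from -0.44 in the joint table to 1.11 here. Relative to the medians, Ddx46 was at -1.35 in the joint table and -0.92 here.

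In round spermatids against lysate, 7 helicases were listed in both tables. Ddx5 was called higher (log2 ratio 2.67) and Ddx17 lower, the second over the narrower interval, beside 22.6% of 4105 genes higher and 3.61% lower. Relative to the median of all genes (0.31), Ddx5 was at 2.36, and its ratio was above that of 98.1% of genes. In MVH IP against round spermatids, D1Pas1, Ddx20 and Dhx36 of 6 listed were called higher and 0 lower, beside 75.4% of 3855 genes higher and 0.545% lower. Relative to the median of 1.85, Dhx36 stayed higher at 1.37, Ddx25, Ddx5 and Ddx46 were called lower at -2.43, -1.43 and -1.37, and D1Pas1 was at -0.25, beside 20.3% of genes higher and 21.5% lower. In hetMIWI against other round spermatids, only Ddx17 of 7 was called higher, again over unequal intervals, and 0 lower, beside 12.7% of 2536 genes higher and 10.5% lower. Ddx25, D1Pas1 and Ddx20 were 1.84-fold, 1.79-fold and 1.89-fold higher in the hetMIWI table and Ddx5 was 1.87-fold lower. Around that comparison's median of 0.43, Ddx17 was called higher (1.37) and Ddx5 lower (-1.33), beside 3.59% of genes higher and 18.3% lower.

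**Figure D4:**
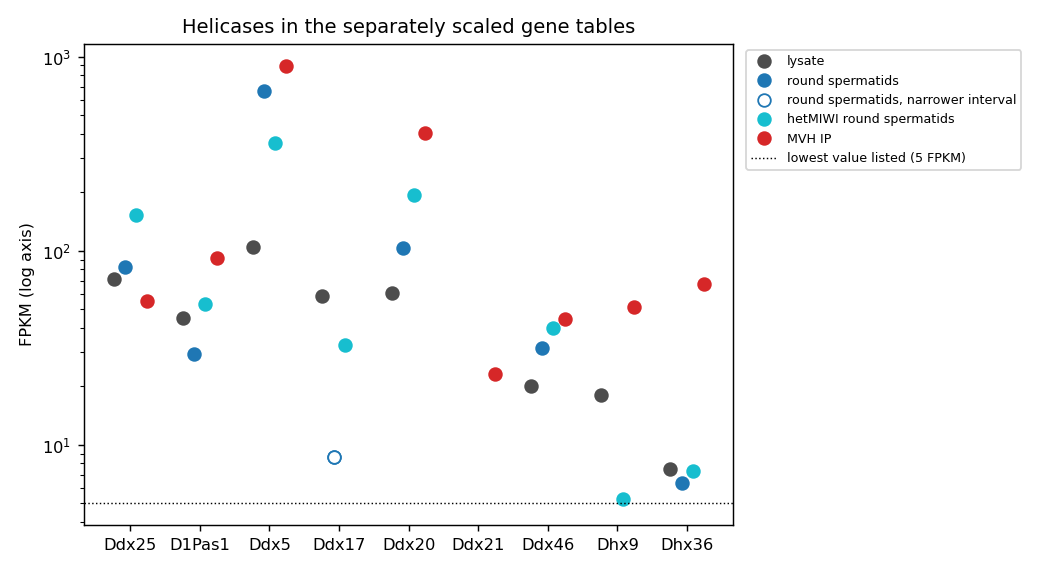
FPKM on a log axis (vertical) of the 9 helicases (horizontal) in the separately scaled tables of lysate, round spermatids, hetMIWI round spermatids and MVH IP, with the dotted line at the lowest value listed and an open circle for the round spermatid value of Ddx17 over a narrower interval. Ddx5 reaches 668 FPKM in round spermatids and 896 in MVH IP against 104 in lysate, and Dhx36 lies near the floor outside MVH IP (67.4).

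Of 47 other DEAD and DEAH helicases with values, 13 were called higher and 3 lower in MVH IP against lysate, with a median log2 ratio of 0.59 beside 0.92 for all genes. The 13 higher are a smaller share than the 47.3% of all genes. Relative to that 0.92, 2 were higher and 12 lower, where all genes had 18.7% higher and 20.6% lower. The separate tables listed 15 of them in both conditions, with 13 higher and 0 lower, beside 78.9% of all genes higher and 0.473% lower. The largest increase was Dhx37, a ribosome assembly helicase, from 4.66 to 23.0 FPKM (log2 ratio 2.09). The largest decrease was Dhx58, which encodes the RIG-I-like receptor LGP2, from 20.5 to 3.10 FPKM (-2.39). Ddx49 went from 21.5 to 3.32 FPKM, and Dhx34 was at 3.47 FPKM in lysate and listed at 0 in MVH IP. In pellet1, 3 of the 47 were called higher and 2 lower, beside 16.8% of all genes higher and 9.41% lower. In pellet2, 0 were called higher and 2 lower, beside 12.5% of all genes higher and 7.21% lower.

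Of 8 SMN complex genes listed, the partners of Ddx20, 3 were called higher and 0 lower in MVH IP against lysate in the joint table, with a median of 0.86, beside 47.3% of all genes higher and 7.53% lower. Gemin4, the direct partner of Gemin3, was highest, from 15.0 to 90.9 FPKM (log2 ratio 2.52), with a q-value of 0.00504 in the authors' deposited table. The separate MVH IP table lists Gemin4 at 580 FPKM, against 90.9 in the joint table, so its MVH IP level depends on the table. The separate lysate table, with its floor of 5.00 FPKM, does not list Gemin4, so no ratio could be formed there. Smn1 went from 13.1 to 64.1 FPKM (2.21) and Sip1, which encodes Gemin2, from 7.07 to 25.2 FPKM (1.70). Gemin5, which recognises the small nuclear RNAs, was lowest in the joint table, from 16.1 to 12.8 FPKM (-0.31), but went from 6.75 to 72.3 FPKM (3.24) in the separate tables. Relative to the median of all genes, the joint table had Gemin4 (1.60) and Smn1 (1.29) higher and Gemin5 (-1.23) lower, where the separate tables had Gemin5 higher (1.21). The direction of Gemin5 thus depends on the table.

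Of 12 nucleolar genes tested, set beside Ddx21, 6 were called higher and 0 lower in the joint table, a share near the 47.3% of all genes, with a median of 1.02. Gar1, a protein of the pseudouridylation particles, was highest (from 3.99 to 22.0 FPKM, log2 ratio 2.21), and Polr1d, a subunit of RNA polymerases I and III, was lowest (from 76.5 to 73.9 FPKM). The separate tables listed 5 of the nucleolar genes in both conditions, with 4 higher and 0 lower, beside 78.9% of all genes higher and 0.473% lower.

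Of 9 SF3A and SF3B genes, set beside Ddx46, 3 were called higher and 0 lower in the joint table, with a median of 0.56. Of all genes, 47.3% were called higher there and 7.53% lower. Sf3b4 was highest (from 21.8 to 55.2 FPKM, 1.30) and Sf3a3 lowest (from 40.1 to 20.4 FPKM, -0.94). In the separate tables Sf3a3 went the other way, from 17.8 to 41.8 FPKM (1.19), where the median of all genes was 2.03. There 6 of the 8 listed genes were called higher and 0 lower, beside 78.9% of all genes higher and 0.473% lower.

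Of 6 microRNA processing genes, set beside Ddx5 and Ddx17, 0 were called higher and 1 lower in the joint table. Of all genes, 47.3% were called higher there and 7.53% lower. The 6 genes had a median of -0.28, and all 6 lay below the median of all genes there. Tarbp2, a partner of Dicer, was the gene called lower (from 21.0 to 6.94 FPKM, -1.47), and Dgcr8 was highest (from 11.9 to 14.9 FPKM, 0.30). The separate tables listed 3 of the 6 in both conditions and did not keep this order. There Tarbp2 went from 8.85 to 81.7 FPKM (3.07) and Dgcr8 from 5.36 to 34.8 FPKM (2.49), both above the median of 2.03, and Xpo5, the exporter of precursor microRNAs, from 7.21 to 5.53 FPKM (-0.33).

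**Figure D5:**
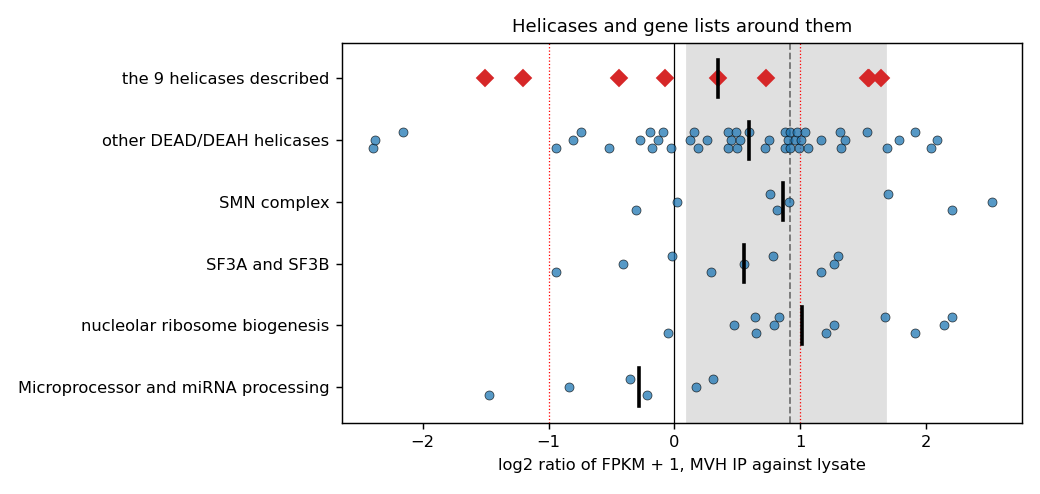
Log2 ratio of FPKM + 1 in MVH IP against lysate in the joint table (horizontal) for the 9 helicases (red) and the genes of 5 lists around them (blue), with a black bar at each median, the dashed line at the median of all genes (0.92), the grey band from their lower to upper quartile and red dotted lines at 2-fold. The list medians run from -0.28 for microRNA processing to 1.02 for nucleolar genes, and the 9 helicases have a median of 0.34.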

How the data were processed

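RNA-seq values of 7 of the 9 groups were used. Per the submitters' processing notes, the authors used TopHat and Cuffdiff with the mm9 build, and the sources used here give no versions, filters or read counts. Values were deposited in FPKM, per their file headers, as a joint table of 5 conditions (27024 features) and as 4 separate gene tables with a floor of 5.00 FPKM. p-values and q-values are those in the authors' deposited table, called at q under 0.05. Libraries of a group were pooled, so no test, SD or depth could be given and the fallback of the design, a ratio, was used. MVH IP varied between pairs of conditions for 12 features, and the highest value was taken. A column of another library type (1) was not used.

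Log2 ratios used a pseudocount of 1 FPKM, which understates changes of low genes, on genes with a symbol that averaged 1 FPKM or more (joint) or listed in both tables (separate). Calls were made at 2-fold. The comparisons and alternatives are given in the closing section. The members, the 5 gene lists and the 7 marker lists were chosen with earlier results of these data known. Named beyond the members were Ddx4, Ddx3x, Ddx3y, the extremes of each list in MVH IP against lysate, and the 3 genes nearest in profile. Ddx50, Mir3064, Kdelr3, Smn1, Sip1, Ddx49, Dhx34, Xpo5, Eif4a2, Npm1 and Odf1 were added after their values were seen. The ratio and call code was tested on simulated data. Start positions were raised by 1, because listed spans then equalled RefSeq gene lengths for 6282 genes, against 433 otherwise. Sequences came from GENCODE M21 with Biopython 1.88, and the rest used pandas 2.3.3 and numpy 2.4.6.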

Additional observations from a re-analysis of the deposited data

How the results depend on the processing

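No paired analysis was possible because each table gives a single value per condition with no replicate number, and for the same reason no replicate could be left out. Of 138 recomputed counts of called helicases, 101 stayed within 1.5 times the main count. Changing the filter on low values or averaging the rows of a symbol could not move these counts, and such recounts are among the 101. With a pseudocount of 5, pellet1 had 1 helicase lower (2 in the main analysis; 3.78% of all genes) and pellet2 had 0 (1; 2.19%). Centred on the median of all genes, MVH IP had 0 higher against lysate (3), 0 higher and 2 lower against pellet2 (3 and 0), and 1 higher and 3 lower against round spermatids (3 and 0), and hetMIWI had 1 lower (0). All genes then had 18.7% higher, 14.2% and 13.7%, 20.3% and 21.5%, and 18.3% lower, in the same order. Rescaled to equal sums without small RNA genes, these were 1 higher against lysate, 0 higher and 2 lower against pellet2, 1 higher and 3 lower against round spermatids, 1 lower for hetMIWI, and 2 lower for round spermatids against lysate (1). All genes then had 28.0% higher, 20.4% and 8.79%, 23.0% and 16.9%, 13.4% and 10.4%, in the same order. Without genes over 1000 FPKM as well, a setting added after seeing the data, MVH IP had 0 higher against lysate (24.4% of all genes), pellet2 had 0 lower against lysate (6.68%), and the other counts were those of the preceding rescaling. For those, all genes had 15.5% higher and 11.4% lower against pellet2, and 22.6% and 17.1% against round spermatids. They had 14.0% lower for hetMIWI and 15.5% lower for round spermatids against lysate. D1Pas1 in MVH IP against round spermatids, called higher at 1.61, turned to -0.25, -0.14 and -0.15 under these 3 settings. Calling at 1.5-fold gave 2 higher in pellet1 (29.3% of all genes), 2 lower in pellet2 (17.9%), 5 higher and 1 lower in MVH IP against pellet2 (59.8% and 8.61%), 3 higher and 2 lower in round spermatids (37.3% and 10.3%), and 4 higher and 1 lower in hetMIWI (42.4% and 17.8%). The separate tables gave 6 higher and 0 lower in MVH IP against lysate (78.9% and 0.473%). Joint values gave 4 lower in round spermatids against lysate (36.5%) and 1 lower in MVH IP against round spermatids (5.86%). Without Ddx17, also added after seeing the data, round spermatids had 0 lower (3.58% of all genes) and hetMIWI 0 higher (12.7%). The cause of each shift was not tested. Of 552 recomputed gene values, 479 kept their call as higher, lower or neither. Changing the filter, averaging the rows of a symbol or leaving out Ddx17 could not alter the ratio of another helicase. The values under those settings kept their call by construction and are among the 479. Values with no call could change sign and still count among the 479, as Dhx9 did in pellet2 against lysate (from 0.0829 to -0.0066). Depth is unknown.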
